A study of Homo sapiens with 4 samples.

Results

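The glycolytic enzymes and the genes of the cellular response to low oxygen were examined in a breast cancer cell line with and without knockdown of ELK3, an ETS family transcription factor. The members were taken from a fixed list of 38 genes: glucose transport and acid handling, the steps of glycolysis, the enzymes that steer pyruvate and fructose bisphosphate, the subunits and regulators of hypoxia-inducible factor (HIF), and 6 further genes of the hypoxia response. Each gene was read from 1 probe set, the one with the highest mean over all arrays among those annotated with exactly 1 symbol, which gave values for 34 of the 38 among 18132 genes tested. SLC2A3 and EGLN2 were annotated only on probe sets that carry several symbols and were not analysed here, and neither were SLC16A3 and CA9.

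RNA from Hs578T, an established line of triple-negative breast cancer with mesenchymal features, was measured on 4 Affymetrix PrimeView arrays. The growth protocol used serum and insulin, and no label names an oxygen level or a hypoxic treatment. The 2 arrays labelled ELK3 knockdown (replicates 1 and 5) came from cells stably transduced with lentiviral shRNA against ELK3, and the 2 labelled ELK3 sh control (replicates 1 and 2) from cells whose control construct the labels do not describe. What the replicate numbers distinguish is not stated, be it separate cultures, clones or shRNA constructs, so p-values measure only the spread between these arrays, which may be technical.

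Glycolysis splits glucose into pyruvate, and lactate dehydrogenase turns pyruvate into lactate so that the pathway can run on without oxygen. HIF is a pair of an oxygen-sensitive alpha subunit (HIF1A or EPAS1) and the constant partner ARNT. When oxygen is present, the EGLN prolyl hydroxylases mark the alpha subunit for VHL, which leads it to degradation. At low oxygen the pair binds hypoxia response elements and raises glucose uptake, most glycolytic enzymes and genes such as CA9, ADM and BNIP3. Several of these genes are therefore used as reporters of HIF activity in tumours, although a transcript level does not measure HIF protein.

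ELK3 itself was 4.16-fold lower: the knockdown arrays read 8.09 (replicate 1) and 7.92 (replicate 5), the control arrays 10.05 (replicate 1) and 10.07 (replicate 2). Array values are given in this order below, as log2 signals. The arrays of a group lay close together (r = 0.996 for knockdown and 0.998 for control, across probe sets), and those of different groups stood apart (r from 0.902 to 0.904). The labelled cell type was checked against its markers. All 15 mesenchymal markers fell, with a mean log2 level over the list of 7.91 and 8.03 in the knockdown arrays against 12.11 and 12.17 in the controls. COL1A2, the second chain of collagen I, read 4.98 and 5.62 against 13.77 and 13.56. Of 13 epithelial markers 5 rose and 1 fell (list level 7.20 to 7.23 against 6.02 to 6.06), and KRT19, a keratin of simple epithelia, read 10.71 and 10.66 against 4.76 and 4.70. The marker that fell was KRT7, another keratin, which read 4.68 and 5.09 against 7.63 and 7.85. CDH1 and EPCAM did not pass and were dim on every array (4.3 to 4.5 and 3.7 to 4.0). Leukocyte markers went 1 up and 1 down of 9 (list level 5.51 to 5.55 against 5.63), and endothelial markers 0 up and 2 down of 6 (5.42 to 5.47 against 5.69 to 5.76). The leukocyte marker PTPRC lay between 3.60 and 3.78 on every array. Of 10 cell cycle genes 8 rose and 1 fell (10.92 to 10.93 against 10.49 to 10.50). The called shares of these lists, in the order given, were 100%, 46.2%, 22.2%, 33.3% and 90%. Over all genes the share was 50.8% (adjusted p under 0.05, limma). Every mesenchymal marker was lower by more than 2-fold in the knockdown arrays, which goes against the line's known character. That both groups come from the same line rests on the labels alone: a difference between cell lines or cell populations and an effect of the knockdown cannot be told apart in these arrays, and every change below is a difference between arrays so labelled. The part of the marker shifts in any result was not tested. Without cross-hybridising names 2 epithelial markers were higher, since KRT8, KRT18 and OCLN then have no probe set, and without either control array 0 cell cycle genes were lower. In such bulk RNA, fewer cells of a type and less RNA per cell cannot be told apart.

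The upstream sequences of 4 members are shown because the values of these genes carry the contrast described next: CA12 had the largest fall of all members on the brightest probe sets, ANKRD37 and BNIP3 are hypoxia genes that fell, and ALDOC is a hypoxia gene that rose. Each is the 250 bases before the annotated start, from RefSeq on GRCh38.p14, written 5′ to 3′ on the strand of the gene. Capitals mark the core of the hypoxia response element, ACGTG or GCGTG, on either strand (so CACGT or CACGC where it lies on the other). The palindrome CACGTG holds that core on both strands and is also the E-box read by the MYC and MAX family.
CA12 (chr15:63381847-63382096, minus strand): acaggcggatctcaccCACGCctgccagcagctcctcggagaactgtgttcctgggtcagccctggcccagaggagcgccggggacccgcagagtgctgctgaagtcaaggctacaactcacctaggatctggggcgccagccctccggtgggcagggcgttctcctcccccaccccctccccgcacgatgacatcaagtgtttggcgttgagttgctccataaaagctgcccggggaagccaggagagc
ANKRD37 (chr4:185396591-185396840, plus strand): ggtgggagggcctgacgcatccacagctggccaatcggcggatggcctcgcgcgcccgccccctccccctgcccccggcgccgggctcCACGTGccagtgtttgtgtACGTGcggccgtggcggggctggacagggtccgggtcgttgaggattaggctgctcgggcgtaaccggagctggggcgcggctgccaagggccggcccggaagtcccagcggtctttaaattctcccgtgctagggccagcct
BNIP3 (chr10:131981924-131982173, minus strand): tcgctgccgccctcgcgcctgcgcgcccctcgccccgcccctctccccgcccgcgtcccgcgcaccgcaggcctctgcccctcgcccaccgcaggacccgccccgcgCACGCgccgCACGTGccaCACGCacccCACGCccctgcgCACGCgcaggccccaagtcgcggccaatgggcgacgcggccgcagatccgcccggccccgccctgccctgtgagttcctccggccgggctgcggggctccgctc
ALDOC (chr17:28576896-28577145, minus strand): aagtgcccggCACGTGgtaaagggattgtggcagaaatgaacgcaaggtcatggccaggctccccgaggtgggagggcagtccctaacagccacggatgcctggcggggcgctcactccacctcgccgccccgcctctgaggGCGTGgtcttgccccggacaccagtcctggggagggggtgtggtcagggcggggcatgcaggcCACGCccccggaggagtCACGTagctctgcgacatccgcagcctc

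More members fell than rose. Those that rose were, by size of change, MXI1, ALDOC, ARNT, EGLN3, VHL, LDHB, EGLN1 and TPI1. At an adjusted p under 0.05 (limma, Benjamini-Hochberg over all genes), 16 of the 34 members fell (47.1%), 8 rose (23.5%) and 10 did not pass. Over all genes 21.3% fell, 29.5% rose and 50.8% were called in either direction, so the members' share lower is above that of the array as a whole and their share higher is below it. That difference was not tested, since the list was chosen with results of these data known. The members are also brighter than most genes. On all 4 arrays 1 of the 34 lay below the median of all probe sets (6.78), against 6812 of 18132 genes. How far brightness shapes the called shares was not tested, here or for the lists below. The median change (knockdown minus control, log2) was -0.22 over the members and -0.01 over all genes. It was -0.19 for knockdown replicate 1 and -0.22 for replicate 5, each against the mean of the controls. Of the 24 called members 11 changed by less than 1.5-fold, 13 by more, and 8 by more than 2-fold, 4 in each direction, where 17.7% of all genes were called with more than 2-fold. The groups did not overlap for 30 of the 34, against 75.3% of all genes.

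**Figure D1:**
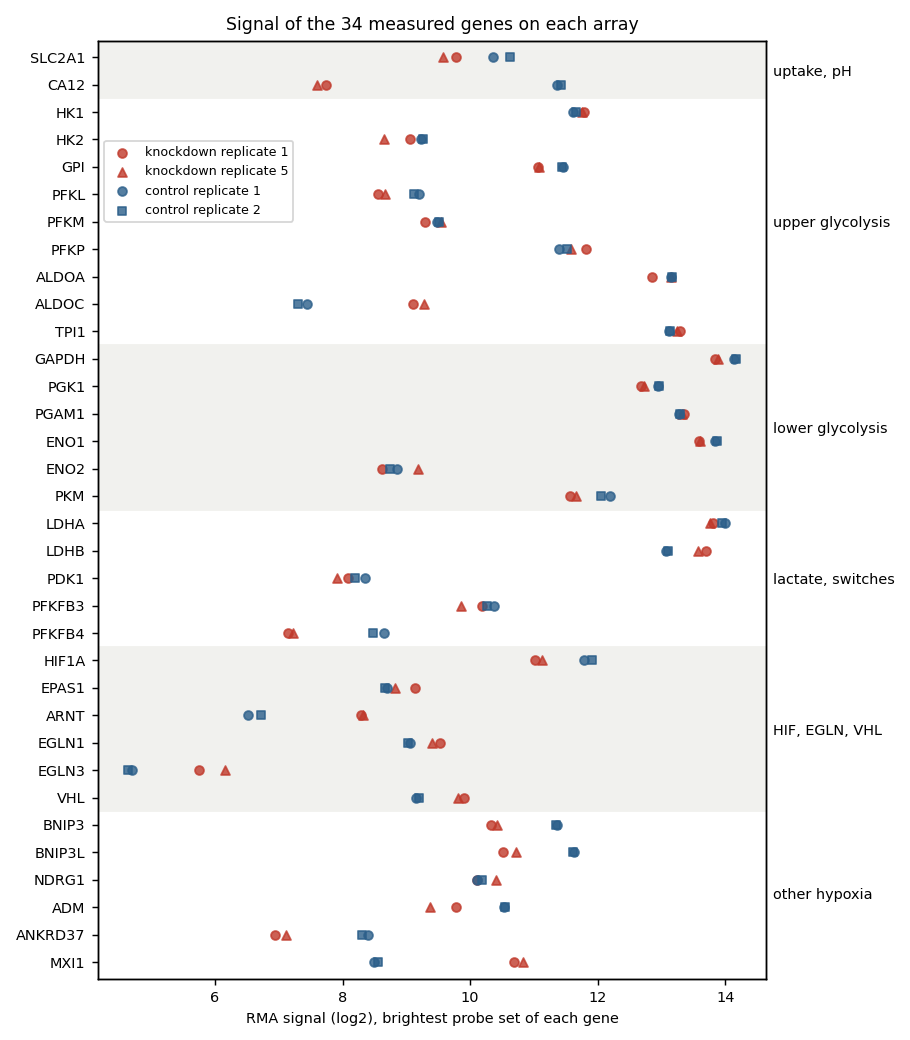
RMA signal (log2) of the 34 measured genes on each of the 4 arrays, grouped by role, 1 point per array; red marks knockdown and blue control. The groups are far apart for CA12, ALDOC, PFKFB4, ARNT, ANKRD37 and MXI1, and within 0.5 log2 units for most enzymes of glycolysis.

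**Figure D2:**
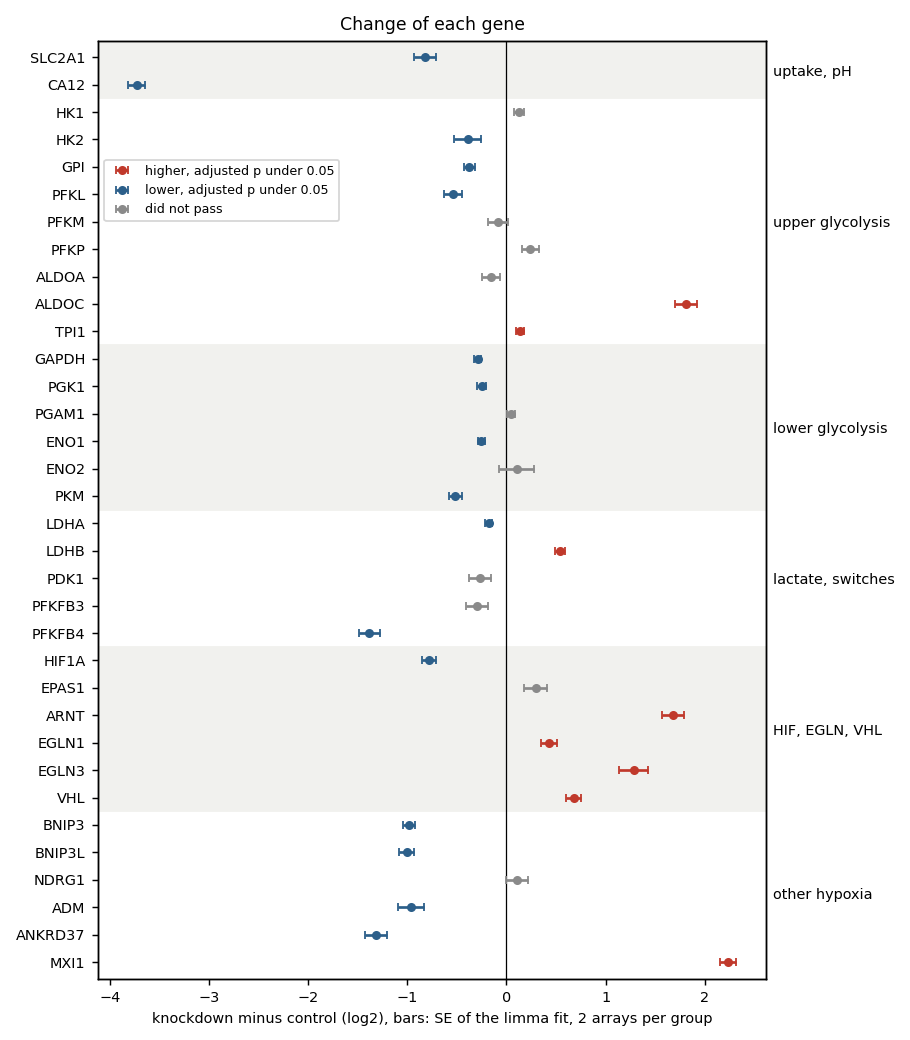
Change of each gene (knockdown minus control, log2) with its SE from the limma fit, 2 arrays per group; colour gives the call at an adjusted p under 0.05. The change runs from -3.73 for CA12 to 2.23 for MXI1.

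Only 2 of the 5 listed genes of glucose transport and acid handling were measured, since SLC2A3, SLC16A3 and CA9 were not read. Both fell, where 21.3% of all genes fell. CA12, a membrane carbonic anhydrase that handles the acid of glycolytic cells, read 7.73 and 7.60 in the knockdown arrays and 11.37 and 11.43 in the controls. Those groups lie far apart, and the fall was 13.3-fold (log2 change -3.73, SE 0.083, adjusted p = 2.18e-07). All 5 of its probe sets fell, between -0.38 and -3.82, and their mean gave -2.85. SLC2A1, the basal glucose transporter GLUT1, read 9.78 and 9.57 against 10.37 and 10.63. It fell 1.77-fold (-0.82, SE 0.11, adjusted p = 6.84e-04), also on all 4 of its probe sets.

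In upper glycolysis, which spends ATP to prepare the sugar for splitting, 3 of 9 enzymes fell, 2 rose and 4 did not pass. The called share of 55.6% was near the 50.8% of all genes. HK2, the inducible hexokinase, fell by 0.39 on the log2 scale (SE 0.14, adjusted p = 0.048), but its knockdown arrays differed from each other by 0.41. That call was lost without knockdown replicate 5 (-0.19), control replicate 1 (-0.41) or control replicate 2 (-0.37), and without the intensity trend (adjusted p = 0.0675, limma). GPI, which turns glucose 6-phosphate into fructose 6-phosphate, changed by -0.38 (SE 0.056, adjusted p = 0.00102). PFKL, the liver-type phosphofructokinase subunit, changed by -0.54 (SE 0.088, adjusted p = 0.00162). The muscle-type and platelet-type subunits PFKM and PFKP did not pass, at -0.08 and 0.24. Without knockdown replicate 5 PFKM was called lower (-0.21) and PFKP higher (0.36), and PFKP also with dim genes left out (0.24) or quantile normalization (0.24).

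ALDOC, the aldolase isozyme abundant in brain, had the largest change among the members of upper and lower glycolysis on the brightest probe sets, but not without cross-hybridising names, where PKM (-0.99) and PFKL (-0.66) changed more. It read 9.10 and 9.28 in the knockdown arrays and 7.45 and 7.30 in the controls, without overlap. The rise was 3.52-fold (1.81, SE 0.11, adjusted p = 1.12e-05). All 5 ALDOC probe sets rose, from 0.56 to 2.13, and with names that mark cross-hybridisation left out the change was 0.56. ALDOA, the ubiquitous aldolase, did not pass at -0.16; it was called lower (-0.31) without knockdown replicate 5. TPI1, which interconverts the triose phosphates, rose by 0.14 (SE 0.042, adjusted p = 0.027), a change that lost its call without knockdown replicate 1 (0.12), control replicate 1 (0.13) or control replicate 2 (0.15), with each array's median subtracted (0.12) and without the intensity trend (adjusted p = 0.195, limma). HK1, the constitutive hexokinase, read 11.78 and 11.75 against 11.62 and 11.66 and did not pass (0.13), though it was called higher without knockdown replicate 5 (0.14). Its other probe sets lay between -0.06 and 0.03, so it has no settled direction.

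Of 6 genes of lower glycolysis, which holds the ATP-yielding steps, 4 fell and 0 rose (21.3% and 29.5% of all genes), and PGAM1 and ENO2 did not pass. GAPDH, often used as a reference gene, read 13.84 and 13.88 in the knockdown arrays and 14.13 and 14.17 in the controls. That is a fall of 1.22-fold (-0.29, SE 0.037, adjusted p = 4.75e-04), small but larger than the gap of 0.03 within either pair. PGK1 and ENO1, phosphoglycerate kinase and the ubiquitous enolase, both changed by -0.25 (adjusted p = 0.0026 and 0.00104), on all 9 and both of their probe sets. PKM, the pyruvate kinase of most tissues and tumours, read 11.56 and 11.66 against 12.19 and 12.06. It fell by 0.52 on its brightest probe set (SE 0.067, adjusted p = 5.20e-04). The other 5 PKM probe sets fell more, between -0.84 and -2.40, and the mean of all 6 gave -1.28. Those at -2.40 and -2.04 read only 4.33 to 4.58 in the knockdown arrays, below the median of all probe sets (6.78). Both enter that mean. PGAM1, the phosphoglycerate mutase, stood at 0.05. ENO2, the neuronal enolase, stood at 0.10: its knockdown arrays read 8.62 and 9.19 on either side of the controls at 8.85 and 8.75, and it was called higher (0.39) without knockdown replicate 1.

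LDHA and LDHB, the dehydrogenase subunits that favour lactate and pyruvate formation respectively, went opposite ways. LDHA read 13.81 and 13.77 in the knockdown arrays against 13.99 and 13.95, a fall of 0.18 (SE 0.039, adjusted p = 0.00639) that lost its call without control replicate 1 (-0.16) or the intensity trend (adjusted p = 0.11, limma). LDHB read 13.69 and 13.57 against 13.08 and 13.09. It rose 1.46-fold (0.54, SE 0.051, adjusted p = 9.66e-05). PFKFB4, one of the bifunctional enzymes that set fructose 2,6-bisphosphate, the activator of phosphofructokinase, read 7.14 and 7.23 against 8.65 and 8.48. Its groups were well apart and its fall was 2.61-fold (-1.38, SE 0.11, adjusted p = 3.83e-05), with all 4 probe sets lower. PFKFB3, the related enzyme, and PDK1, the kinase that shuts pyruvate dehydrogenase, did not pass at -0.30 and -0.27. Both were called lower when their probe sets were averaged (-0.29 and -0.37), with quantile normalization (-0.32 and -0.31) or without knockdown replicate 1 (-0.46 and -0.35).

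Of the 6 measured HIF subunits and regulators, 4 rose, 1 fell and 1 did not pass (83.3% called). Over all genes 29.5% rose, 21.3% fell and 50.8% were called. The alpha subunit HIF1A fell, and its partner ARNT, 2 hydroxylases and VHL rose. HIF1A read 11.02 and 11.12 in the knockdown arrays and 11.79 and 11.91 in the controls. The fall was 1.72-fold (-0.78, SE 0.069, adjusted p = 7.24e-05). All 8 HIF1A probe sets fell, and the brightest one gave the smallest change, the others reaching -1.52. EPAS1, which encodes HIF-2 alpha, read 9.13 and 8.82 against 8.70 and 8.66 and did not pass (0.30). It was called higher without knockdown replicate 5 (0.45), and its other probe set stood at -0.18, so its direction rests on the probe set.

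ARNT, the constant HIF partner, read 8.29 and 8.32 in the knockdown arrays and 6.53 and 6.72 in the controls. It rose by 1.68 (SE 0.11, adjusted p = 1.81e-05). No fold is given, since its control signals lie below the median of all probe sets (6.78). All 5 ARNT probe sets stood above 0 and 4 of them passed, but the size rests on the probe set: the mean of all gave 0.85, and without cross-hybridising names it was 0.55. EGLN3, a hydroxylase that is itself induced by HIF, read 5.76 and 6.16 against 4.70 and 4.65. It rose by 1.28 (SE 0.15, adjusted p = 2.77e-04), on all 3 probe sets. EGLN1, the main HIF hydroxylase, rose by 0.43 (SE 0.084, adjusted p = 0.00419). All 3 EGLN1 probe sets have names that mark cross-hybridisation, and 2 of them passed. VHL, the substrate receptor of the ubiquitin ligase, read 9.90 and 9.81 against 9.15 and 9.20, 1.60-fold higher (0.68, SE 0.077, adjusted p = 2.63e-04), with both probe sets higher. EGLN3 is the dimmest member and lay below the median of all probe sets (6.78) on every array, so no fold is given for it.

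Of the other 6 hypoxia response genes, 4 fell, 1 rose and 1 did not pass (83.3% called, against 50.8% of all genes). BNIP3 and BNIP3L, receptors that send mitochondria to autophagy, both fell on their brightest probe sets. BNIP3 read 10.32 and 10.42 against 11.36 and 11.34, a 1.98-fold fall (-0.98, SE 0.064, adjusted p = 1.67e-05). That call rests on 1 probe set whose name marks cross-hybridisation, since the only other one was dim (5.82 to 5.98) and stood at 0.02. BNIP3L read 10.52 and 10.71 against 11.63 and 11.61, or 2.01-fold lower (-1.01, SE 0.077, adjusted p = 3.51e-05). All 6 BNIP3L probe sets fell, down to -1.55; 2 of them hold identical values, so 5 are distinct.

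ANKRD37, an ankyrin repeat gene induced by HIF, read 6.95 and 7.12 in the knockdown arrays and 8.41 and 8.30 in the controls. It was 2.50-fold lower (-1.32, SE 0.11, adjusted p = 5.60e-05), and -0.68 with the mean of its 2 probe sets. ADM, the precursor of the vasodilator adrenomedullin, read 9.79 and 9.37 against 10.52 and 10.55, 1.94-fold lower (-0.96, SE 0.13, adjusted p = 6.73e-04) on all 3 probe sets. NDRG1, a stress-induced gene, did not pass: it read 10.10 and 10.41 against 10.10 and 10.19 (0.11), and its other 5 probe sets lay between -0.06 and -0.31. Without knockdown replicate 1 its brightest probe set was called higher (0.26).

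MXI1 had the largest rise of all members on the brightest probe sets; by the mean of probe sets ALDOC rose slightly more (1.58), and without cross-hybridising names EGLN3 did (1.28). MXI1 encodes a MAX partner that opposes MYC, and it is listed here because HIF induces it. It read 10.69 and 10.83 in the knockdown arrays and 8.49 and 8.56 in the controls, 4.70-fold higher (2.23, SE 0.082, adjusted p = 1.22e-06). All 5 MXI1 probe sets rose, from 1.07 to 2.23. The mean of all gave 1.55, and 1.19 was left without cross-hybridising names. Among 12 other genes of the MAX network 4 rose and 3 fell (58.3% called, against 50.8% of all genes). MYC, the activator that MXI1 opposes, read 9.77 and 9.56 against 11.31 and 11.28 and fell by 1.63. MLXIP, a glucose-sensing partner of MLX, rose by 1.23, and the MYC antagonists MXD4 and MXD1 fell by 0.78 and 0.76.

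The probe sets of a member mostly went one way. The 34 members have 116 probe sets, of which 87 passed when each was tested on its own, and 0 members had called probe sets in both directions. The share passing among all probe sets was not counted. Among all genes, read from 1 probe set each, 50.8% were called. Of the 28 members with several probe sets, 24 had all of them on one side of 0; the exceptions were HK1, EPAS1, BNIP3 and NDRG1. The probe set read was one whose name marks cross-hybridisation for 23 of the 34. Signal brightness differs too: 12 members, among them GAPDH, LDHA, ENO1 and PGAM1, had a mean above the 95th percentile of all genes, and the largest change among these was the 0.78 of HIF1A.

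**Figure D3:**
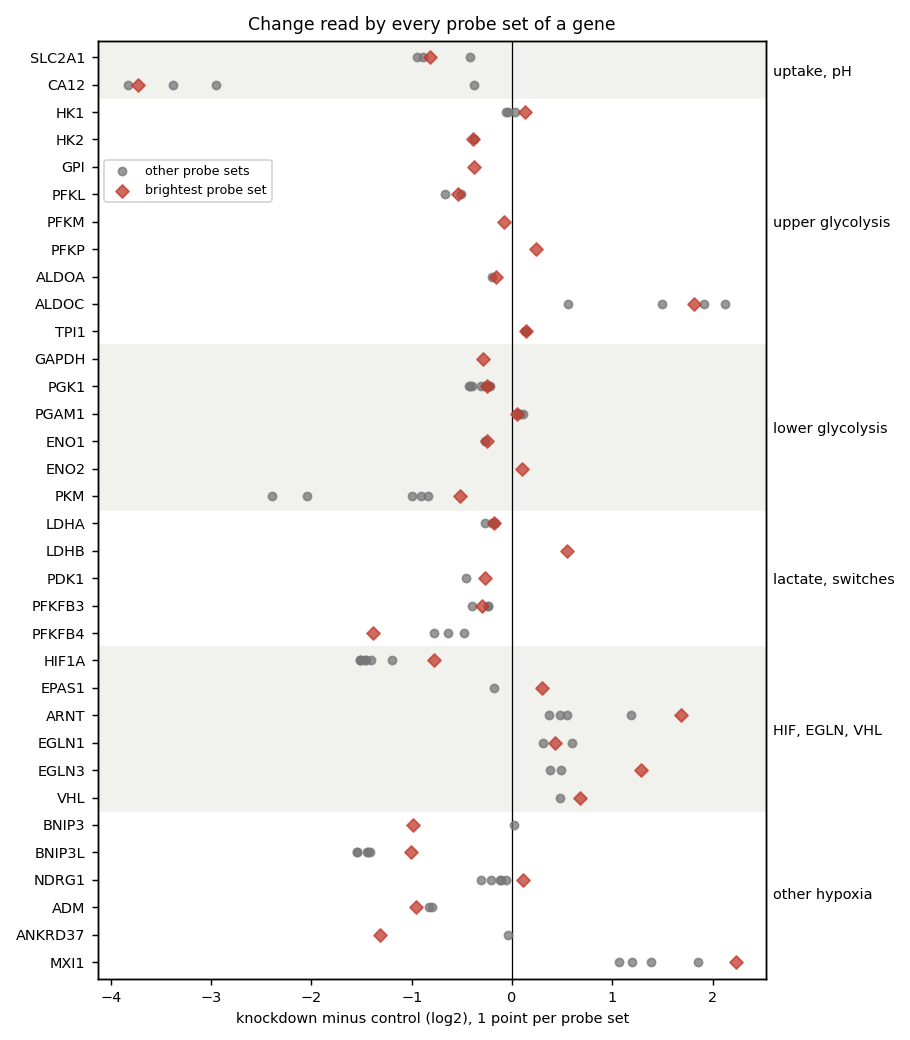
Change (knockdown minus control, log2) read by each of the 116 probe sets of the 34 genes; red diamonds mark the brightest probe set of a gene and grey circles the others. HIF1A, PKM and BNIP3L fell more on their other probe sets than on the brightest, and ARNT, EGLN3 and MXI1 rose less.

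The change of 1 gene relative to the other was taken within each array for 10 pairs of related genes. How often unrelated pairs would not overlap was not counted, and the groups did not overlap for 75.3% of all single genes. The arrays of the groups did not overlap for 9 of them, narrowly for ENO2 against ENO1, where knockdown replicate 1 read -4.97 against -4.98 and -5.11 in the controls. ALDOC rose relative to ALDOA by 1.97, EPAS1 relative to HIF1A by 1.08, EGLN3 relative to EGLN1 by 0.86, PFKP and PFKM relative to PFKL by 0.78 and 0.46, LDHB relative to LDHA by 0.72 and ENO2 relative to ENO1 by 0.36. HK2 stood 0.52 lower relative to HK1 and PFKFB4 1.08 lower relative to PFKFB3. BNIP3L and BNIP3 overlapped on the brightest probe sets (-0.02), but BNIP3L stood lower by the mean of probe sets (-0.92) and without cross-hybridising names (-1.57). Both of these values draw on the dim BNIP3 probe set, which read 5.82 to 5.98 on every array. They therefore cannot show that BNIP3L fell more than BNIP3. The size also moved for EGLN3 against EGLN1 (0.27 by the mean of probe sets) and EPAS1 against HIF1A (1.75 without cross-hybridising names). With 2 arrays against 2 a two-sided exact permutation test cannot give a p below 0.333, which all 9 reached (0.37 after Benjamini-Hochberg over the 10 pairs), so none passes. The direction of all 10 was the same when probe sets were averaged and, where measurable, without cross-hybridising names.

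**Figure D4:**
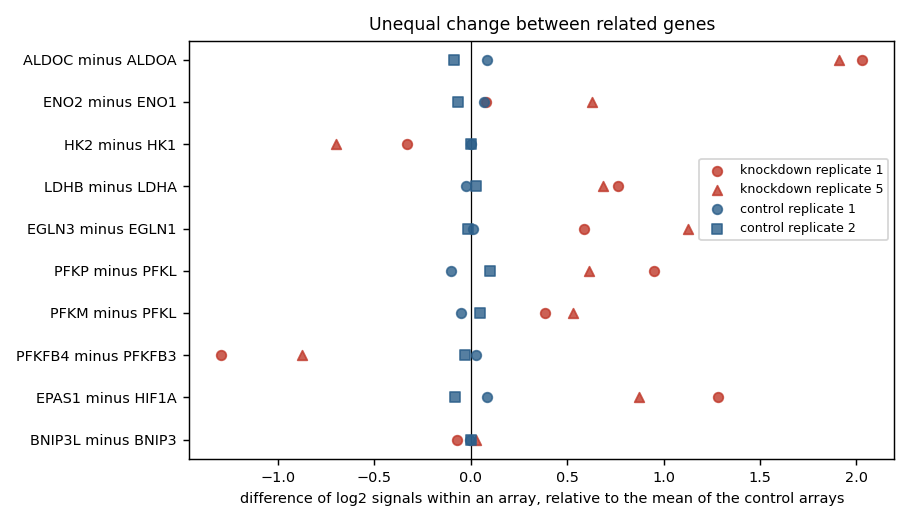
Difference of the log2 signals of 2 related genes within an array, set to 0 at the mean of the control arrays, for 10 pairs and 4 arrays. The red knockdown points lie farthest from the blue control points for ALDOC against ALDOA at 1.97. For ENO2 against ENO1 knockdown replicate 1 sits on the control points, and for BNIP3L against BNIP3 the groups overlap.

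Genes of the pathway outside the list were read in the same fit. Among 42 other hypoxia-inducible genes 19 fell and 14 rose, a called share of 78.6% against 50.8% of all genes, with a median change of -0.15. The 4 largest changes were falls of secreted proteins or matrix enzymes. IGFBP3, which binds insulin-like growth factors, read 5.88 and 5.48 against 12.89 and 12.77, a change of -7.15. LOX, the collagen crosslinking oxidase, read 5.58 and 5.13 against 12.08 and 12.02, a change of -6.69, or -5.52 by the mean of its probe sets. The stanniocalcins STC2 and STC1 changed by -5.20 and -4.88. No fold is given for these genes: the knockdown signals of IGFBP3, LOX and STC1 lie below the median of all probe sets (6.78), near that of CD3E, a T cell marker at 5.75 to 6.10, and RMA carries no detection call. Of 21 HIF partners, VHL complex genes and hydroxylase regulators, 10 rose and 6 fell (76.2% called, median 0.17). Both lists are bright: 3 of the 42 and 0 of the 21 genes lay below that median on all arrays. CITED1, a CBP and p300 binding protein, rose by 2.70, with knockdown arrays 8.80 and 7.46 that differ widely. EP300, the coactivator p300, rose by 1.24, NPAS2, a circadian relative of HIF, fell by 1.69 (2.37 without cross-hybridising names), and ARNT2, the neural ARNT, fell by 1.33, or 0.47 when its probe sets were averaged.

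The next 3 lists had called shares near or below the 50.8% of all genes. Of 31 other isozymes and pyruvate enzymes 14 rose and 2 fell (51.6% called, median 0.16). Over all genes 29.5% rose and 21.3% fell, so this list leans towards higher, a lean that was not tested. PDK3, another pyruvate dehydrogenase kinase, read 9.45 and 9.53 against 7.02 and 6.90 and rose 5.79-fold. LDHC, the testis form of lactate dehydrogenase, rose by 2.33 from control signals of 5.12 and 5.37, BPGM, which makes 2,3-bisphosphoglycerate, fell 2.89-fold, and PFKFB2 rose by 1.35, or by 0.34 when its probe sets were averaged. The number lower was 4 with the mean of probe sets or without knockdown replicate 5. Of 16 other glucose and monocarboxylate transporters 3 rose and 4 fell (43.8% called, median -0.16). SLC2A10 fell by 2.64 (1.60 with the mean of probe sets), the monocarboxylate carrier SLC16A7 fell by 1.42, and SLC2A6 and SLC2A12 rose by 1.13 and 1.07. SLC2A6 stood at 0.40 without cross-hybridising names, and the number lower was 2 in that setting or without control replicate 1. Genes of the pentose phosphate branch, glycogen and gluconeogenesis went both ways, 5 of 23 higher and 7 lower (52.2% called, median -0.05). PCK2, the mitochondrial PEP carboxykinase, fell by 1.74, PPP1R3C, a glycogen-targeting phosphatase subunit, by 1.56, and GBE1, the glycogen branching enzyme, by 1.21, while PYGL, a glycogen phosphorylase, rose by 1.17.

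The hypoxia core was counted in the 250 bases before each listed start. The promoter table held 31 of the 34 measured members, in 56 windows, since some genes have several starts; BNIP3L, NDRG1 and VHL had no entry. ACGTG or GCGTG, on either strand, was found in 32 of the 56 windows (57.1%), against 43.2% of all 35116 windows. Counted by gene, 13 of 15 members that fell had a match in at least 1 window, as did 4 of 7 that rose and 8 of 9 that did not pass. Genes with more windows have more chances of a match, and the share by gene over all genes was not counted. By window a match was found in 83.3% of 18, 50.0% of 10 and 42.9% of 28, in the same order. These differences were not tested. The palindrome CACGTG, whose matches are part of those counts, was in 14.3% of the members' windows and 6.34% of all. The ETS core CCGGAA, the class of sequence ELK3 binds, was in 23.2% and 14.5%. Of the sequences printed above, ANKRD37 held 3 matches, BNIP3 6, ALDOC 5 and CA12 1, with overlapping matches in a palindrome counted separately. ALDOC rose and BNIP3 fell with the palindrome in both. A match describes letters in a window and is not a measured binding site.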

How the data were processed

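The deposited values are log2 signals of 49293 probe sets on 4 PrimeView arrays, deposited after RMA normalization, which is named in the submitters' processing notes without a version. Array medians lay between 6.76 and 6.80. Arrays carry no read depth, so their number limits the precision, and RMA gives no call above background. Probe sets were named through the platform annotation (44988 with 1 symbol, 1832 with several, 2473 unnamed here).

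The groups were compared over all 18132 genes with limma 3.58.1 in R 4.3.3 (lmFit, eBayes with an intensity trend, group as the only factor, two-sided, Benjamini-Hochberg, adjusted p under 0.05), with 2 residual and 4.83 prior degrees of freedom. On simulated data with 200 changed genes among 18132 in 10 runs the fit recovered 41.0% of 1.5-fold, 90.5% of 2-fold and 99.6% of 4-fold changes, with 4.35% false calls. Far more genes were called in the real arrays (50.8%), and the simulated spreads were drawn from the prior of the fit. These rates therefore need not hold for the comparison made here. Folds are differences of log2 means on the linear scale. Full values are given for members past the threshold with over 1.5-fold and for those whose direction turns with the probe set; other lists name up to 4 genes past the threshold by size, and the remaining values given were chosen after they were seen. The members and lists were chosen with earlier results of these data known. Promoters were read from the RefSeq table of GRCh38.p14. Figures used matplotlib 3.10.9 in Python 3.11.15. Alternatives tried were the moderation, the probe set choice, a filter on dim genes, the scaling, the threshold and leaving out each array.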

Additional observations from a re-analysis of the deposited data

How the results depend on the processing

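The 8 members higher and 16 lower stayed within 1.5 times under all but these alternatives: without moderation 5 were higher (and 11 lower), and by the submitters' own criterion (more than 1.5-fold, p under 0.05 before adjustment) 5 were higher and 8 lower, where 19.1% and 12.6% of all genes met it. Without moderation 28.1% of all genes were called against 50.8%, and the members that lost their call were SLC2A1, HK2, TPI1, PKM, LDHA, EGLN1, EGLN3 and ADM. The median change of the members, -0.22, was -0.25 with dim genes left out, -0.26 with quantile normalization and -0.24 with each array's median subtracted, and lay between -0.22 and -0.18 over the 4 fits that leave out 1 array, in which the lone array is assumed to vary like the others. BNIP3 turned from -0.98 to 0.023 (adjusted p = 0.893) with cross-hybridising probe sets left out, a setting that leaves 26 members. The members lost there were GPI, ALDOA, TPI1, GAPDH, PGAM1, ENO1, LDHA and EGLN1, so their changes rest on such probe sets alone. Across scalings the median of all genes stayed between -0.03 and 0. No paired analysis was possible because the groups share only replicate number 1. With 2 arrays a group the number of arrays limits which small changes can be called, and RMA values carry no detection call for dim genes such as EGLN3. No group has enough arrays to test for an outlying one.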
